A study of Mus musculus with 6 samples.

Results

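The genes described here encode 9 proteins that move calcium across the membranes of the endoplasmic reticulum (ER) and of mitochondria: the ER pumps *Atp2a2* and *Atp2a3*, the ER release channels *Itpr1*, *Itpr2* and *Itpr3*, the ER calcium sensor *Stim1*, and *Mcu*, *Micu2* and *Letm1* of the mitochondrial inner membrane. They were chosen by name as one pathway. All 9 were found among the 19445 gene loci with an FPKM value, 7 under their current symbol and 2 under an older one (*Ccdc109a* for *Mcu* and *Efha1* for *Micu2*). FPKM is an abundance corrected for transcript length and library size, so levels of different genes can be set side by side. RNA came from inguinal white fat (iWAT) of 3 *Hlx* transgenic mice and 3 wild-type (WT) littermates, all 12 weeks old and labelled male, kept without any listed treatment. The transgene places the *Hlx* cDNA under an *aP2* (*Fabp4*) promoter fragment, which is active in fat. Founders were made in C57BL/6 × SJL hybrid embryos and the line was crossed back to C57BL/6. The number of transgenic lines behind the 3 mice is not given in the sources used here.

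In adipocytes, as in other cells, the ER holds the main calcium store. SERCA pumps fill it at the cost of ATP, IP3 receptors open it when hormone signals raise IP3, and STIM1 senses its depletion and opens ORAI channels at the cell surface. Calcium released near mitochondria enters their matrix through the uniporter, whose pore is MCU and whose gatekeepers are the MICU proteins. In beige fat, ATP-driven calcium cycling through SERCA2 is known as a route of heat production that does not need UCP1.

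Facts of the whole experiment bear on every value below. FPKM of a library summed to between 466059 and 542096, and read depth is unknown. All 6 libraries held *Xist*, the RNA of the inactive X chromosome, at 20.2 to 33.6 FPKM, and the 28 Y-linked loci were listed at 0 throughout, which goes against the male label in both genotypes alike. *Hlx* itself was at 96.2 FPKM on average in transgenic and 7.45 FPKM in WT iWAT. Adipocyte markers were abundant in each library, with a summed level of 26260 to 33129 FPKM in WT and 28909 to 34257 FPKM in transgenic mice. Most of this sum was *Fabp4*, and 2 of the 8 adipocyte markers, *Adipoq* and *Retn*, fell in transgenic iWAT. Of 8 brown adipocyte markers, 7 rose. Fast skeletal muscle markers varied, with a summed level of 51.3, 229.6 and 93.3 FPKM in WT and 192.9, 919 and 227.5 FPKM in transgenic mice, highest in transgenic replicate 2. Of the 11 tested, 1 (*Myl1*) was called higher and 3 were higher at an unadjusted p under 0.05, with a median log2 fold change of 2.07. *Myl1* was less uneven than the other markers. It gave 41.6 of the 51.3 FPKM in WT replicate 1, where *Acta1* had 2.36 FPKM and *Ckm* 0.0657 FPKM. The sum therefore overstates the muscle RNA of that mouse relative to these other markers. Macrophage markers summed to 754 to 955 FPKM in WT and 358 to 510 FPKM in transgenic mice, and 4 of 7 fell. These are whole tissue samples, so fewer cells of a type and less RNA per cell cannot be told apart.

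Of the 9 genes, 6 rose in transgenic iWAT at an adjusted p under 0.05, 0 fell (0 also at an unadjusted p under 0.05) and 3 were not called (limma on log2(FPKM + 1), n = 3 mice per genotype). For comparison, 11.6% of the 11692 loci tested were called higher and 7.03% lower, or 18.6% in all. The largest rises were those of *Itpr2*, *Itpr1* and *Letm1*. *Mcu*, *Atp2a2* and *Stim1* rose by less, and *Micu2*, *Atp2a3* and *Itpr3* were not called. All 9 passed the filter on low values (a mean over 1 FPKM in at least 1 genotype) in both genotypes. The median log2 fold change of the 9 was 0.35, against -0.01 over all loci tested. The transgenic and WT values did not overlap at 7 of the 9, all 7 with the transgenic values above. Over all tested loci 42.9% had no overlap, and 22.8% had none with the transgenic values above.

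**Figure D1:**
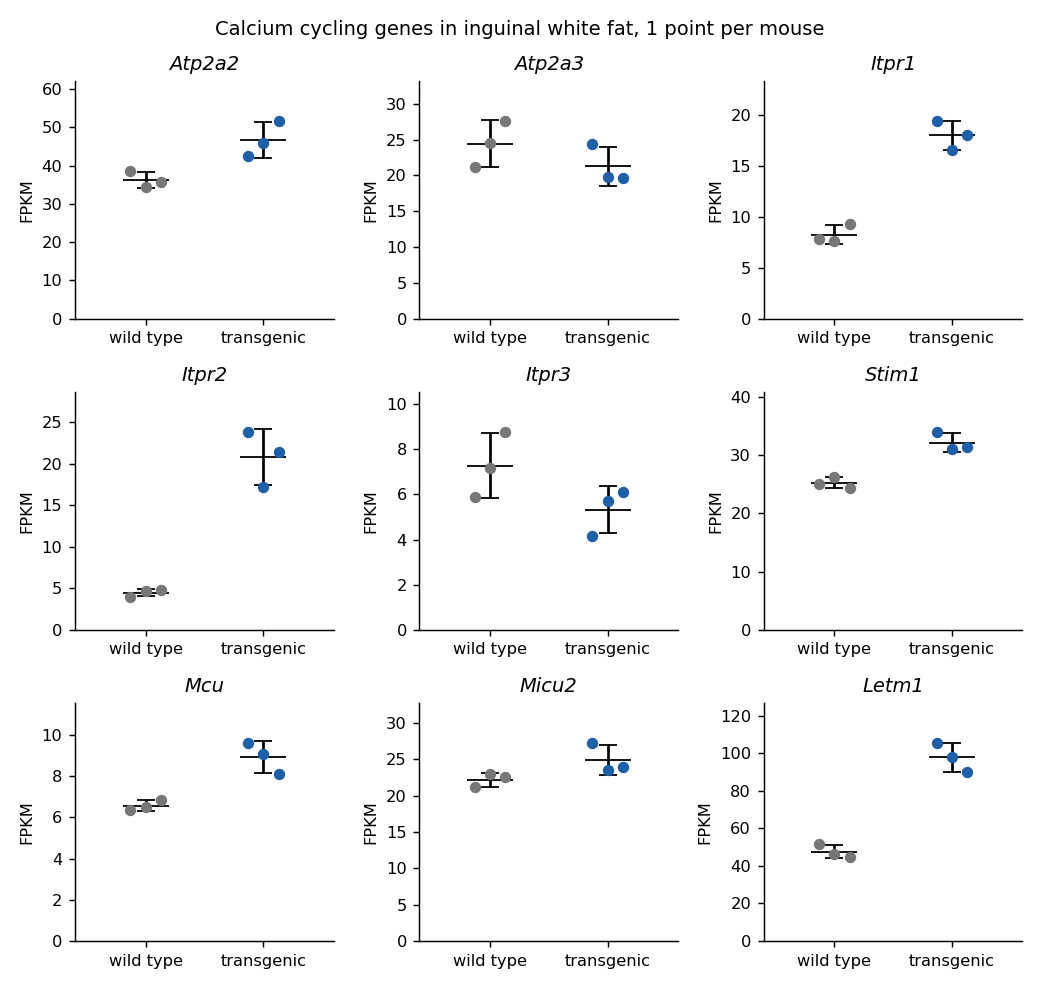
FPKM (vertical axes, each from 0) of the 9 calcium cycling genes in each WT mouse (grey) and each transgenic mouse (blue), with the mean and SD as black bars (n = 3). Only *Atp2a3* and *Itpr3* have transgenic and WT points that overlap; at the other 7 each transgenic point lies above each WT point, with *Micu2* the closest (highest WT 23.0 FPKM, lowest transgenic 23.5 FPKM).

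Among the upstream regions available from RefSeq (build GRCm38.p6, the same assembly as mm10), 7 of the 9 genes had an entry, and *Atp2a2* and *Itpr1* had none. The 250 bases before the start site are given for the 4 genes with an entry that rose, since these are the stretches in which a shared motif would be sought first. The start is RefSeq's, which for *Itpr2* lies 13136 bases inside the locus measured here, for *Letm1* 88 and for *Stim1* 9 bases inside it, and for *Mcu* at its end. Each is written 5′ to 3′ on the gene's strand, and capitals mark 3 motifs on either strand. They are the GC box, spelled GGGCGG, the CCAAT box, named for its letters, and the AP-1 motif, spelled TGANTCA with N for any base.

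Itpr2 upstream region, chr6:146502224-146502473, minus strand: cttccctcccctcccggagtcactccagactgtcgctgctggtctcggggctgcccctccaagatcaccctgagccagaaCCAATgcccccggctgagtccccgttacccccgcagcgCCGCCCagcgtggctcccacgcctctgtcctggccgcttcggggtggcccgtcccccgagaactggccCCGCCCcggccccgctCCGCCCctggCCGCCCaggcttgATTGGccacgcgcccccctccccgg
Letm1 upstream region, chr5:33782718-33782967, minus strand: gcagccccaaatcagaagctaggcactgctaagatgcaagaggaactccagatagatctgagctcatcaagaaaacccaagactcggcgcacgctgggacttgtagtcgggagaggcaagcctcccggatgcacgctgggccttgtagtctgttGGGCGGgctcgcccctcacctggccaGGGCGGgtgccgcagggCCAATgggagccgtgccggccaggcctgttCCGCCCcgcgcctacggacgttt
Mcu upstream region, chr10:59616693-59616942, minus strand: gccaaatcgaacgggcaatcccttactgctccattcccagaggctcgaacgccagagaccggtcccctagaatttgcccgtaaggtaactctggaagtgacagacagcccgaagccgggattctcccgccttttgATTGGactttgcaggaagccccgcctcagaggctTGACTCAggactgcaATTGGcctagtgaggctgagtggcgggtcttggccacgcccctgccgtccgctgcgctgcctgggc
Stim1 upstream region, chr7:102267569-102267818, plus strand: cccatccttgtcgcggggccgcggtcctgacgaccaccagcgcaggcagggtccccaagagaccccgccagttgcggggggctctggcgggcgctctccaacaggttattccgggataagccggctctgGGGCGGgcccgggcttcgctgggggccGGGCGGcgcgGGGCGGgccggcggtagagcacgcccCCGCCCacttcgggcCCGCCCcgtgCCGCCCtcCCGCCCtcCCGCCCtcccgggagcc

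The 4 regions shared no single one of the searched motifs. GC boxes were present in *Itpr2* (4 matches), *Letm1* (3) and *Stim1* (8) but not in *Mcu*, and CCAAT boxes in *Itpr2* (2), *Letm1* (1) and *Mcu* (2) but not in *Stim1*. These are common motifs, held by 32.7% and 33.8% of the 32851 RefSeq upstream regions of this length. Those regions were not matched for base content. Their median share of G and C was 52.4%, against 60.8% (*Mcu*) to 78.4% (*Stim1*) in the 4 regions. *Mcu* alone of the 7 held an AP-1 motif, as did 6.75% of all regions. The cyclic AMP response element TGACGTCA (1.55% of all regions), the ERR motif TCAAGGTCA (0.387%), the DR1 motif, which is AGGTCA repeated after 1 free base (0.0335%), the NRF1 motif, which is GCGCA followed by its own reverse complement (0.782%) and the homeodomain motif TAATTA (4.84%) were in none of the 7, and the E-box CACGTG (6.02%) was in *Itpr3* only. No match says only that these letters are not in these windows.

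IP3 receptors, the channels through which the ER releases calcium on hormone signals, differed by gene, with *Itpr2* and *Itpr1* higher in transgenic mice and *Itpr3* not called. *Itpr2*, on chromosome 6 of mm10 from 146108303 to 146515359, had 3.95, 4.66 and 4.85 FPKM in WT mice and 23.9, 17.2 and 21.4 FPKM in transgenic mice. The lowest transgenic value was thus far above the highest WT value. The means were 4.49 ± 0.472 FPKM and 20.8 ± 3.36 FPKM (SD, n = 3 each), a ratio of 4.64. On the log2(FPKM + 1) scale, which understates changes of low genes, it rose by 1.98 (standard error 0.13, limma adjusted p = 0.000418). Of all loci tested, 0.641% had a log2 fold change as high or higher.

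The table lists *Itpr2* in 3 entries with the same coordinates, of which the one with the highest mean FPKM was used. The other entries also had every transgenic value above every WT value. The middle one held 1.53 and 4.19 FPKM in WT replicates 2 and 3, 3.40e-39 FPKM in WT replicate 1, which in effect is 0 and can be a failed estimate, and 15.0, 12.2 and 18.98 FPKM in transgenic mice. The lowest held 0.307 to 0.493 FPKM in WT and 1.36 to 1.99 FPKM in transgenic mice. With the 3 entries summed, the log2 fold change was 2.36 (limma adjusted p = 0.00168). The direction of *Itpr2* therefore did not rest on the entry used, while its level did.

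*Itpr1*, the receptor known best from neurons, lies on chromosome 6 from 108213096 to 108551116. It had 7.76, 7.59 and 9.28 FPKM in WT mice and 19.4, 16.6 and 18.0 FPKM in transgenic mice. The groups were well apart, with means of 8.21 ± 0.929 and 18.0 ± 1.42 FPKM (SD, n = 3 each). The rise was 1.05 on the log2 scale (standard error 0.10, limma adjusted p = 0.00123). *Itpr1* and *Itpr2* each kept their call in all 15 other settings.

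*Itpr3*, on chromosome 17 from 27057304 to 27122223, encodes the receptor most used in epithelia. It had 5.91, 7.15 and 8.78 FPKM in WT mice and 4.14, 5.72 and 6.10 FPKM in transgenic mice. The groups overlapped, since transgenic replicate 3 was above WT replicate 1. Its log2 fold change was -0.39 (95% confidence interval -0.79 to 0.01, limma adjusted p = 0.146), so a fall was not detected and a fall of up to 0.79 on the log2 scale was within the interval. Epithelial markers summed to 236 to 323 FPKM in WT and 144 to 278 FPKM in transgenic mice, with 0 of 9 tested called by limma (3 lower at an unadjusted p under 0.05). Lymphocyte markers summed to 363 to 505 FPKM and 255 to 387 FPKM. Like *Itpr3*, both sums were lowest in transgenic replicate 1. The same mouse also had the lowest sums of macrophage (358 FPKM), platelet (42.5), smooth muscle (63.3) and fibroblast and progenitor markers (1355). This low is thus not particular to epithelial cells or lymphocytes. The part of any of these cells in the values of *Itpr3* was not tested.

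Summed over the 3 receptor genes, the level was 17.6, 19.4 and 22.9 FPKM in WT and 47.4, 39.5 and 45.5 FPKM in transgenic mice, a ratio of means of 2.21. The make-up of this pool differed too. *Itpr2* made up 22.5 ± 1.43% of it in WT and 47.0 ± 3.38% in transgenic mice, and *Itpr3* 36.2 ± 2.47% and 12.2 ± 3.05% (SD, n = 3 each). The share of *Itpr1* was between 39.1% and 44.0% in all 6 mice. These shares depended on the *Itpr2* entry used. With its 3 entries summed, a setting added after the data were seen, the ratio of means of the pool was 2.75, *Itpr2* made up 29.7 ± 5.47% in WT and 61.6 ± 3.18% in transgenic mice, and *Itpr1* made up 33.6% to 43.3% in WT and 27.2% to 31.3% in transgenic mice, without overlap. The log2 ratio of *Itpr3* to *Itpr2* within a mouse was 0.68 on average in WT and -1.98 in transgenic mice, a difference of -2.66. That of *Itpr1* to *Itpr2* was 0.87 and -0.20, a difference of -1.07. Both ratios were lower in every transgenic mouse than in every WT mouse (exact permutation test, two-sided p = 0.1 each, the smallest that 3 mice against 3 allow, and 0.114 adjusted over the 8 ratios tested).

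**Figure D2:**
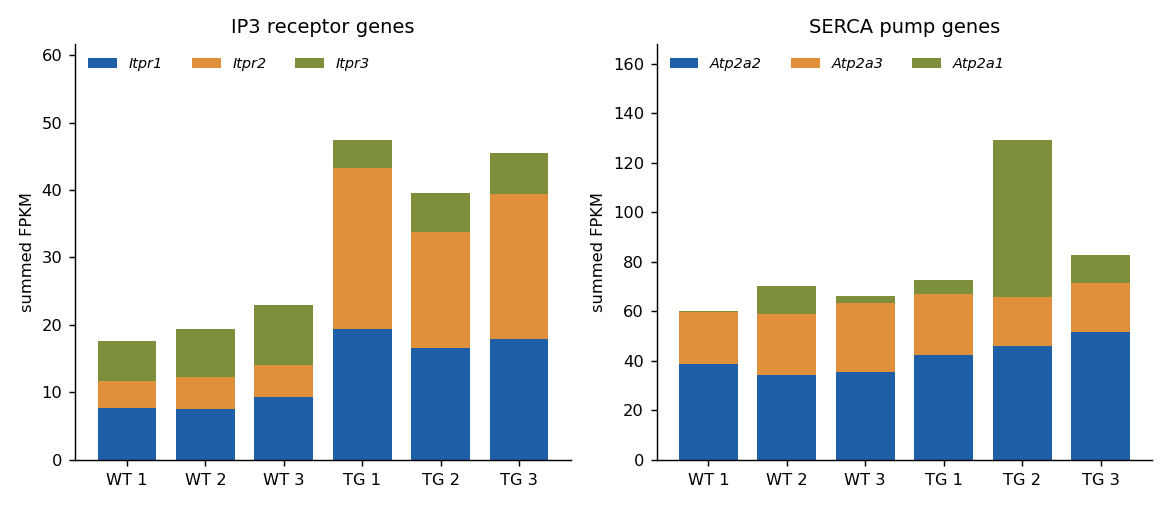
Summed FPKM (vertical axes, from 0) of the IP3 receptor genes and of the SERCA pump genes in each WT (WT 1 to 3) and transgenic (TG 1 to 3) mouse, 1 bar per mouse and 1 colour per gene. The IP3 receptor bars reach 17.6 to 22.9 FPKM in WT and 39.5 to 47.4 FPKM in transgenic mice, with the *Itpr2* part growing most; in the SERCA bars the muscle gene *Atp2a1* is uneven and largest in TG 2 (63.6 FPKM).

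Other genes that act on IP3 receptors did not move one way. Of 13 such genes, all tested, 3 rose, 2 fell and 8 were not called, with a median log2 fold change of 0.04. *Ahcyl1* encodes IRBIT, which occupies the IP3 binding site of the receptors. It rose from 46.4 to 52.7 FPKM in WT to 149.3 to 206.9 FPKM in transgenic mice (log2 fold change 1.87, standard error 0.13, limma adjusted p = 0.000581). Its relative *Ahcyl2* rose by 0.93 on the log2 scale (adjusted p = 0.00371), and *Itprid2*, whose product KRAP tethers the receptors to actin, by 1.01 (adjusted p = 0.000665). *Bcl2* and *Bok*, whose products bind IP3 receptors, fell by 0.46 and 0.45 (limma adjusted p = 0.0265 and 0.0424). The 3 rises were called in all 14 other settings, whereas *Bcl2* lost its call in 5 (adjusted p up to 0.0897) and *Bok* in 7 (up to 0.107), mostly with a mouse left out.

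Upstream of the receptors, 1 of 15 tested genes for making or removing IP3 rose, 2 fell and 12 were not called (median log2 fold change -0.09). *Plcb4*, a phospholipase C, rose by 0.52 (limma adjusted p = 0.0295), while *Plcb1* and *Plcg2* fell by 0.47 and 0.82 (adjusted p = 0.0265 and 0.0492). These calls were lost in 7, 6 and 8 of 14 other settings (highest adjusted p 0.0959, 0.0851 and 0.159). *Plcg2*, the phospholipase of B cells and macrophages, had 10.2, 10.2 and 17.8 FPKM in WT and 5.36, 8.21 and 6.26 FPKM in transgenic mice. It followed the macrophage sum in being highest in WT replicate 3 and, among transgenic mice, highest in replicate 2. The B cell marker *Cd79b* had the same 2 maxima (87.2, 105.2 and 151.0 FPKM in WT, 54.6, 81.8 and 64.9 FPKM in transgenic mice), and *Ms4a1*, another B cell marker, fell (limma adjusted p = 0.0361). The part of these cells in the fall of *Plcg2* was not tested.

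Of the ER pumps, *Atp2a2* rose by a small amount and *Atp2a3* was not called. *Atp2a2*, on chromosome 5 from 122453337 to 122502326, encodes SERCA2, the pump of most tissues and of slow and cardiac muscle. It had 38.6, 34.4 and 35.6 FPKM in WT mice and 42.5, 45.9 and 51.7 FPKM in transgenic mice. The groups did not overlap but came within a few FPKM of each other. Its means were 36.2 ± 2.17 and 46.7 ± 4.69 FPKM (SD, n = 3 each), a ratio of 1.29, with a log2 fold change of 0.35 (95% confidence interval 0.13 to 0.58, limma adjusted p = 0.0452). The call was lost when any mouse except transgenic replicate 1 was left out (adjusted p 0.0626 to 0.130) and held without that one (0.0423).

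*Atp2a3*, on chromosome 11 from 72961169 to 72993043, encodes SERCA3, the pump of blood, epithelial and endothelial cells. It had 21.2, 24.5 and 27.6 FPKM in WT and 24.4, 19.8 and 19.6 FPKM in transgenic mice, with overlap. Its log2 fold change was -0.19 (95% confidence interval -0.49 to 0.11, limma adjusted p = 0.314). The ratio of *Atp2a3* to *Atp2a2* overlapped between the genotypes as well, with a difference of -0.56 on the log2 scale (exact permutation test, two-sided p = 0.2). Leaving *Atp2a1* aside, the summed SERCA level was 58.9 to 63.3 FPKM in WT and 65.7 to 71.3 FPKM in transgenic mice.

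*Atp2a1*, which encodes the SERCA1 pump of fast skeletal muscle, had 0.210, 11.3 and 3.04 FPKM in WT and 5.82, 63.6 and 11.6 FPKM in transgenic mice (limma adjusted p = 0.176). Like the summed fast muscle markers, it was lowest in WT replicate 1 and highest in transgenic replicate 2. The lowest value of *Atp2a2* was in WT replicate 2 and the highest in transgenic replicate 3. Without transgenic replicate 2 its log2 fold change was 0.36 and was not called (limma adjusted p = 0.0766). Slow muscle markers, from fibres that use SERCA2, summed to no more than 8.80 FPKM in any mouse. Their sum was 2.72 to 4.90 FPKM in WT and 6.15 to 8.80 FPKM in transgenic mice, and *Myl3* rose (log2 fold change 1.47, limma adjusted p = 0.00247) while *Myh7*, the defining slow myosin, was at or under 0.242 FPKM. The part of muscle RNA in the rise of *Atp2a2* was not tested.

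The small SERCA inhibitors had low listed values. Sarcolipin (*Sln*), the inhibitor of muscle SERCA, was listed at 0 in 3 of 6 mice and reached at most 0.533 FPKM, and phospholamban (*Pln*) at most 0.129 FPKM. A listed 0 can be a failed estimate, since *Sdf4*, a widely expressed calcium-binding gene, was also listed at 0 in all 6 mice. Ryanodine receptors, the other class of ER release channels, were low. *Ryr1* had 1.89 to 2.74 FPKM in WT and 1.51 to 3.42 FPKM in transgenic mice (limma adjusted p = 0.681), and *Ryr2*, the partner of SERCA2 in the heart, stayed at or under 0.0491 FPKM. Of the 8 tested genes of ryanodine receptors and the muscle calcium store, 0 were called by limma (0 at an unadjusted p under 0.05, median log2 fold change 0.29). The SERCA regulator list had 2 tested genes, *Atp2a1* and *Tmx1*, with 0 called by limma (1 higher at an unadjusted p under 0.05). ER calcium buffers and chaperones, among them calreticulin and BiP, had 0 of 9 called by limma (1 lower at an unadjusted p under 0.05, median log2 fold change -0.06). Of 5 ER leak genes, *Psen2* (presenilin 2) fell by 0.40 (limma adjusted p = 0.0273), a call lost in 5 of 14 other settings (highest adjusted p 0.0858), and 4 were not called.

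*Stim1*, on chromosome 7 from 102267810 to 102437343, had 25.1, 26.2 and 24.4 FPKM in WT mice and 34.0, 31.0 and 31.4 FPKM in transgenic mice. The groups were clearly apart, with means of 25.2 ± 0.941 and 32.2 ± 1.62 FPKM (SD, n = 3 each) and a ratio of 1.28. The log2 fold change was 0.34 (95% confidence interval 0.16 to 0.51, limma adjusted p = 0.0233). Without transgenic replicate 2 the call held (adjusted p = 0.038), and without any other single mouse it was lost (0.0565 to 0.0784). Its paralogue *Stim2* had 8.51 to 9.26 FPKM in WT and 8.45 to 9.10 FPKM in transgenic mice, and *Orai1*, the channel that STIM1 opens, 12.3 to 14.7 FPKM and 11.5 to 14.7 FPKM (limma adjusted p = 0.882 and 0.886). Of the 5 tested genes of store-operated entry other than *Stim1*, 0 were called by limma (0 at an unadjusted p under 0.05). On the export side, the plasma membrane pumps *Atp2b4* and *Atp2b1* fell, from 19.3 to 26.4 FPKM to 11.5 to 12.9 FPKM and from 12.6 to 13.3 FPKM to 8.35 to 10.2 FPKM (log2 fold changes -0.88 and -0.45, limma adjusted p = 0.0043 and 0.0156). The call of *Atp2b1* was lost without WT replicate 3 (adjusted p = 0.0575), that of *Atp2b4* held in all 14 other settings, and the other 2 of 4 tested export genes were not called.

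**Figure D3:**
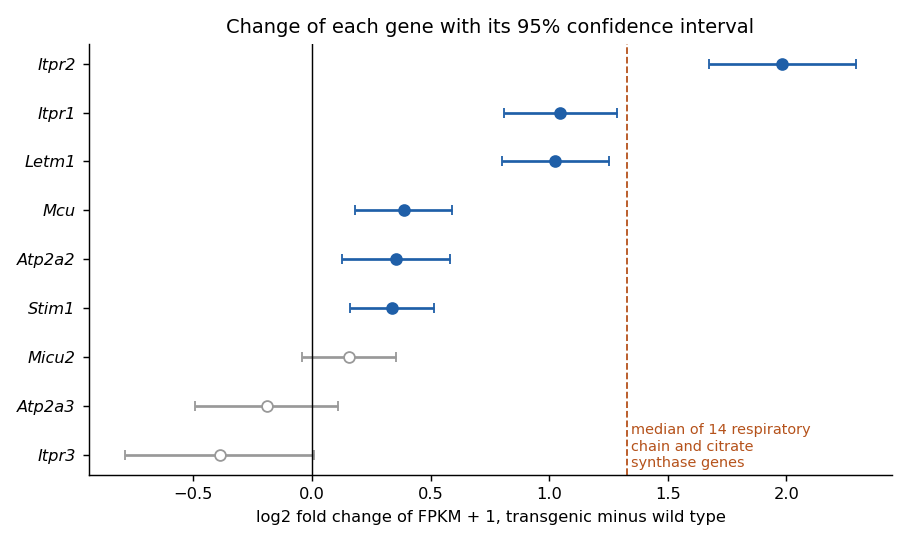
Log2 fold change of FPKM + 1, transgenic minus WT (horizontal axis), for each of the 9 genes with its 95% confidence interval from limma (n = 3 mice per genotype). Filled blue points have an adjusted p under 0.05 and open grey points do not; the dashed line is the median of 14 respiratory chain and citrate synthase genes, 1.33, above which only *Itpr2* lies.

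Of the mitochondrial genes, *Letm1* and *Mcu* rose and *Micu2* was not called. *Letm1*, on chromosome 5 from 33739579 to 33782805, encodes an inner membrane protein that exchanges cations for protons. It had 51.5, 46.5 and 44.6 FPKM in WT mice and 105.6, 98.0 and 90.0 FPKM in transgenic mice. Every transgenic mouse thus had well over the highest WT level, with means of 47.5 ± 3.54 and 97.9 ± 7.81 FPKM (SD, n = 3 each). The rise was 1.03 on the log2 scale (standard error 0.10, limma adjusted p = 0.0011) and its call held in all 15 other settings.

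*Mcu*, on chromosome 10 from 59446984 to 59616692, forms the pore of the uniporter. It had 6.37, 6.49 and 6.86 FPKM in WT mice and 9.62, 9.06 and 8.09 FPKM in transgenic mice. The groups did not overlap, with means of 6.57 ± 0.254 and 8.92 ± 0.775 FPKM (SD, n = 3 each), a ratio of 1.36. The log2 fold change was 0.39 (95% confidence interval 0.18 to 0.59, limma adjusted p = 0.0241). This call was lost without any single mouse other than transgenic replicate 3 (adjusted p 0.0539 to 0.0762) and held without that one (0.0348).

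*Micu2*, on chromosome 14 from 57916280 to 57999262, encodes a gatekeeper that keeps the pore shut at resting calcium. It had 21.1, 23.0 and 22.5 FPKM in WT and 27.3, 23.5 and 23.9 FPKM in transgenic mice. The groups were separate by a narrow margin, and the log2 fold change of 0.16 was not called (95% confidence interval -0.04 to 0.36, limma adjusted p = 0.227). *Micu2* was more abundant per length than the pore gene in each mouse. Within a mouse, it was at 3.38 times *Mcu* in WT and 2.79 times in transgenic mice (geometric means). This ratio was lower in every transgenic than in every WT mouse (exact permutation test, two-sided p = 0.1, 0.114 adjusted).

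Of the 4 other uniporter genes tested, 2 rose, 1 fell and 1 was not called. *Mcur1*, which encodes a scaffold of the uniporter, rose from 30.4 to 36.1 FPKM to 52.4 to 65.8 FPKM (log2 fold change 0.74, limma adjusted p = 0.0071). *Micu3*, a MICU paralogue, rose from 2.23 to 3.09 FPKM to 3.96 to 6.50 FPKM (0.73, adjusted p = 0.029). *Mcub*, which encodes a subunit that lowers uniporter current, fell from 6.38 to 8.93 FPKM to 3.31 to 5.40 FPKM (-0.73, adjusted p = 0.0331). The call of *Mcur1* held in all 14 other settings, while *Micu3* and *Mcub* lost theirs in 5 and 6 (adjusted p up to 0.108 and 0.120). The macrophage marker sum fell without overlap as well, and its part in the fall of *Mcub* was not tested. No locus was matched to *Smdt1*, which encodes the EMRE subunit, so it was not analysed here.

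Genes for calcium exit from the matrix and for the upkeep of these proteins included 4 that rose, 0 that fell and 2 not called, of 6 tested (median log2 fold change 0.71). *Ghitm*, which encodes the inner membrane protein TMBIM5, rose from 122.7 to 141.5 FPKM to 271.3 to 309.7 FPKM (1.15, limma adjusted p = 0.000904). *Afg3l2* and *Spg7*, the subunits of the m-AAA protease that trims EMRE, rose by 1.00 and 0.96 (adjusted p = 0.00204 and 0.00175). *Letm2*, a paralogue of *Letm1*, rose by 0.46 (adjusted p = 0.0419), with its call lost in 7 of 14 other settings (highest adjusted p 0.121). *Slc8b1*, which encodes the sodium/calcium exchanger NCLX, had 11.5 to 14.4 FPKM in WT and 9.10 to 11.2 FPKM in transgenic mice (log2 fold change -0.33, adjusted p = 0.084). Its groups did not overlap, and the difference was called only with sample weights (adjusted p = 0.0343) among the 14 other settings.

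At contacts between ER and mitochondria, 6 of 14 tested genes rose, 0 fell and 8 were not called (median log2 fold change 0.28). *Rmdn3*, *Vdac1* and *Hspa9*, for a tether, the outer membrane calcium channel and the chaperone grp75 that joins VDAC to IP3 receptors, rose by 0.94, 0.82 and 0.81 (limma adjusted p = 0.00257, 0.00385 and 0.0122). *Mfn2* rose by 0.56 (adjusted p = 0.00414), *Mfn1* and *Vdac2* by 0.45 each (0.0123 and 0.0271). The calls of *Hspa9* and *Vdac2* were lost in 1 and 5 of 14 other settings (highest adjusted p 0.0540 and 0.0884), with quantile normalization the rise of *Hspa9* was 0.47, and the other 4 held. In all 11 lists without the 9 genes, 85 genes were tested, of which 16 rose and 8 fell, with a median log2 fold change of 0.04 against -0.01 over all loci. Over all loci tested, 11.6% were called higher and 7.03% lower. The share of these lists called lower was near that background. The lists were chosen with earlier results of these data known, so no result about them is drawn from these shares.

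**Figure D4:**
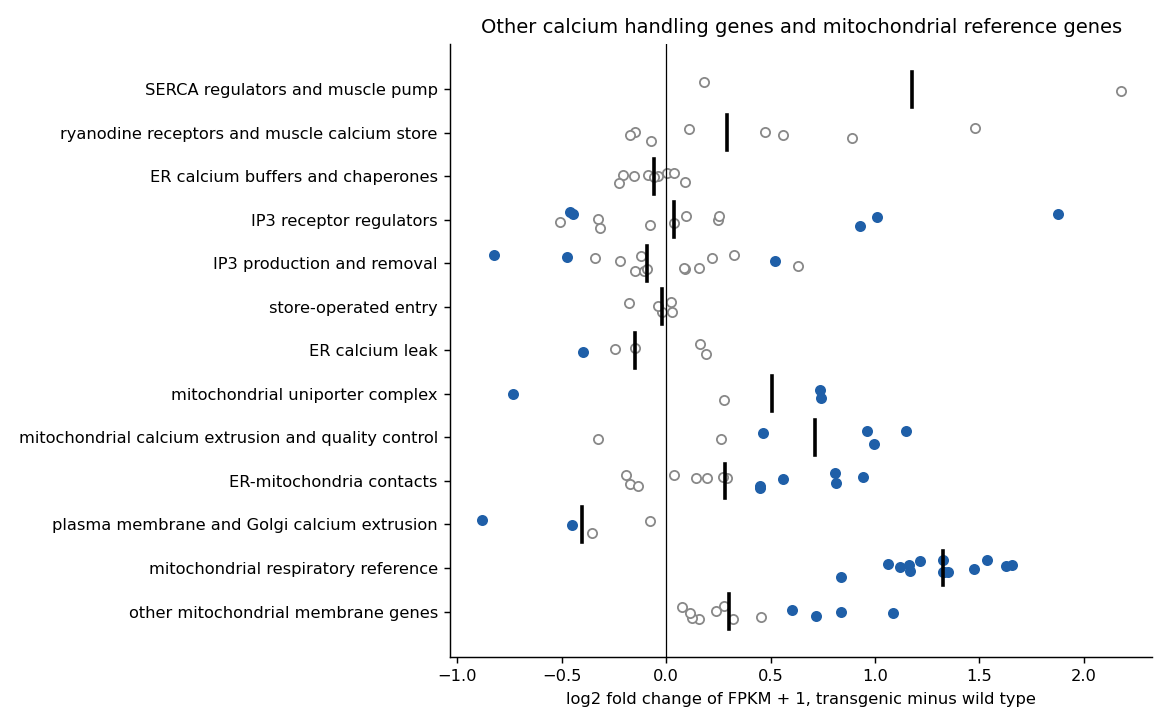
Log2 fold change of FPKM + 1, transgenic minus WT (horizontal axis), of the tested genes of each calcium handling list and of both mitochondrial reference lists, 1 point per gene. Filled points have an adjusted p under 0.05 by limma and black bars are medians: the respiratory genes lie highest (median 1.33), and plasma membrane and Golgi export lies lowest (-0.40).

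The respiratory chain served as a measure for the mitochondrial genes. All 14 reference genes for the respiratory chain and citrate synthase rose, with log2 fold changes of 0.84 to 1.65 and a median of 1.33. Of 12 other genes of mitochondrial membranes, 10 of the inner and 2 of the outer membrane (*Tomm20* and *Tomm40*), 4 rose and 8 were not called (median 0.30). Set against the mean log2 FPKM of these respiratory genes within each mouse, *Mcu* had log2 ratios of -5.40, -5.18 and -5.00 in WT and -6.18, -5.87 and -6.14 in transgenic mice, a difference of -0.87. *Micu2* had -3.67, -3.36 and -3.28 against -4.67, -4.49 and -4.57, a difference of -1.14. *Letm1* had -2.39, -2.34 and -2.29 against -2.72, -2.43 and -2.66, a difference of -0.26. All 3 ratios were lower in each transgenic mouse than in each WT mouse, least so for *Letm1* (exact permutation test, two-sided p = 0.1 each, 0.114 adjusted over 8 ratios). None of these ratios could pass a threshold of 0.05 with 3 mice against 3, and the margin between the groups was narrow for *Letm1*. Since all 14 reference genes rose, a lower ratio restates that a gene rose by less than they did. No ratio to the 12 other genes was taken. Their median of 0.30 lay below the log2 fold changes of *Mcu* (0.39) and *Letm1* (1.03) and above that of *Micu2* (0.16).

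**Figure D5:**
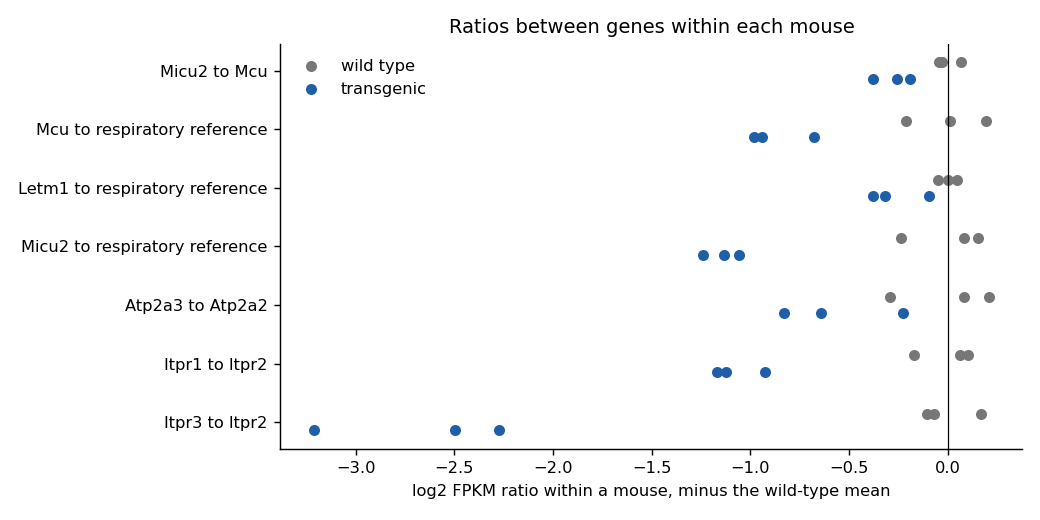
Log2 ratio of FPKM between pairs of genes within each mouse, shown as the difference from the WT mean of that ratio (horizontal axis), for WT (grey) and transgenic mice (blue), 1 point per mouse. The genotypes are apart in 6 of the 7 ratios drawn and overlap for *Atp2a3* to *Atp2a2*; *Itpr3* to *Itpr2* is moved furthest, by -2.66 on average.

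By level, *Letm1* was the highest of the 9 in each genotype, followed by *Atp2a2*. In WT mice the next were *Stim1*, *Atp2a3* and *Micu2*, with means of 25.2, 24.4 and 22.2 FPKM, and the ranges of *Stim1* and *Micu2* both overlapped that of *Atp2a3*. *Itpr1*, *Itpr3* and *Mcu* followed at 8.21, 7.28 and 6.57 FPKM with ranges that overlapped between *Itpr3* and each of the others, and *Itpr2* was lowest by the entry used. With its 3 entries summed it had a WT mean of 6.78 FPKM, above that of *Mcu*, and a transgenic mean of 37.8 FPKM. In transgenic mice *Itpr2* stood at 20.8 FPKM by the entry used, with a range that overlapped those of *Micu2*, *Atp2a3* and *Itpr1*, and *Itpr3* was lowest at 5.32 FPKM.

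The profiles most like those of 3 of the genes over the 6 mice were sought by the root mean square difference of log2(FPKM + 1) after centring. For *Atp2a2* they were *Clec11a*, *Lilra5* and *Josd1* (0.0201, 0.0353 and 0.0357), for *Stim1* *Atp6v1a*, *Ttc1* and *Atg4a* (0.0186, 0.0224 and 0.0237), and for *Letm1* *Khdrbs3*, *Ndufs8* and *Pde4a* (0.0295, 0.0516 and 0.058). Much of this likeness is the shared difference between genotypes.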

How the data were processed

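RNA-Seq of iWAT from 3 *Hlx* transgenic and 3 WT mice was analysed, with 1 library per mouse. The authors prepared TruSeq libraries, mapped the reads to mm10 and estimated levels per gene. TopHat2 2.0.9, Bowtie2 2.1.0 and Cufflinks 2.2.1 are named in the submitters' processing notes, and the annotation is not given in the sources used here. The authors deposited FPKM values, and counts were not used here. The kit does not mark strand. Table starts count from 0 and were raised by 1.

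For each locus limma 3.58.1 (R 4.3.3, eBayes with trend, two-sided) was fitted to log2(FPKM + 1) over the 11692 loci with a mean over 1 FPKM in at least 1 genotype, with Benjamini-Hochberg adjustment over all of them. Adjusted p under 0.05 was a call. No set test was run. Where a symbol had several loci the one of highest mean was kept, and loci that carry several symbols matched no list. Log2 ratios within a mouse were compared by exact permutation. The procedure was tested on simulated data with changes of at least 2-fold, which does not bear on the smaller rises of *Atp2a2*, *Stim1* and *Mcu*. No member locus overlaps another locus of the table.

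The 9 genes, the lists and the tests were chosen with earlier results of these data known. All 9 genes are named, with called genes of the calcium lists, 10 further calcium genes chosen by role and the 3 loci most alike to the most abundant gene of each role. *Tmx1*, *Sdf4*, *Ryr2*, *Tomm20*, *Tomm40* and the marker genes were named after their values were seen. Results on 2 other genes, among them 1 of the 8 ratios, are not reported here. Platelet, smooth muscle, endothelial and fibroblast marker lists were also summed, and limma called 0 of 2, 0 of 7, 2 of 8 (both higher) and 0 of 8 tested genes (1, 0, 4 and 2 at an unadjusted p under 0.05). Alternatives were a pseudocount of 0.1, other filters, quantile and median-ratio scaling, eBayes without trend, sample weights, a block on the replicate number, omission of every mouse in turn, for the whole table a 2-fold minimum, for ratios FPKM + 1 and, for the 9 genes, the sum of a symbol's loci.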

Additional observations from a re-analysis of the deposited data

How the results depend on the processing

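The rises of *Itpr1*, *Itpr2* and *Letm1* held in all 15 alternatives. Among the 9 genes, 3 to 6 were called higher in these alternatives (3 to 4 with a mouse left out, and 3 without any 1 of the WT replicates) and 0 were called lower, except 1 (*Itpr3*, adjusted p = 0.0467) with the replicate number as a block. The replicate numbers mark different animals, and same-numbered mice barely deviated together (correlations of 0.0129, 0.0344 and 0.0701 across loci, and each transgenic mouse correlated best with a mouse of another number). With this block *Atp2a2* and *Mcu* were not called (adjusted p = 0.0766 and 0.0595) and *Atp2a1* was (0.00675), the whole table had 1230 higher and 656 lower calls, the other calcium lists had 17 higher and 5 lower, and the ratio tests cannot give a p under 0.25. *Atp2a2* was also lost without a filter, with quantile normalization and with eBayes without trend (adjusted p = 0.0937, 0.104 and 0.0539), and *Mcu* without a filter (0.0539).

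Over the whole table, calls moved from 1352 higher and 822 lower to 748 and 381 without a filter on low values, where more loci were tested, and to 413 and 204 when a 2-fold ratio of mean FPKM was required in addition. Leaving out 1 mouse gave 780 to 1295 higher and 329 to 906 lower, with fewer samples. The other calcium lists went from 16 higher and 8 lower to 12 and 3 without a filter, and to 12 to 19 higher and 2 to 7 lower with a mouse left out. The log2 fold change of *Orai1*, not called in any setting, changed sign to -0.086 with sample weights, and it ranged from -0.037 to 0.124 with a mouse left out, below 0 without transgenic replicate 1 or 2 or WT replicate 1 or 3. That of *Stim2* ranged from -0.044 to 0.011, above 0 without transgenic replicate 1 or WT replicate 2. No scaling moved the median of all loci by over 0.1. Quantile normalization gave 1300 higher and 1083 lower calls, so that 54.6% rather than 62.2% of calls were higher, and sample weights gave 1611 and 1185. Of the 8 ratios, 7 to 8 had no overlap in each alternative in which overlap was counted, 8 without WT replicate 1 or transgenic replicate 1. Depth is unknown and the 3 mice per genotype set the precision.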
